A study of Homo sapiens with 6 samples.

Results

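The genes described here encode factors that assemble the large ribosomal subunit, together with abundant nucleolar proteins and the core proteins of the H/ACA particles. The list holds 51 genes. A gene was measured where the array's platform annotation gave it as the only symbol of a probe set, which held for 45 of them, out of 13572 genes measured on the array. BOP1, PPAN and DKC1 had only probe sets annotated to other genes as well. For EBNA1BP2, DDX18 and GNL3 the lookup by symbol gave no probe set to use. These 6 were not analysed here, and the 45 measured genes all passed the filter on low signal.

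RNA came from Kasumi-1, a human acute myeloid leukaemia cell line that carries the RUNX1-RUNX1T1 fusion. One group was 3 samples treated with 20 nM HHT (homoharringtonine) for 24 h, and the other was 3 samples kept in vehicle for 24 h. HHT, an alkaloid first found in plum yews, stops protein synthesis at the ribosome. Every sample is this 1 line, which limits what the groups can stand for. The labels name neither the solvent nor separate cultures, so the spread behind each p-value is that between these arrays and may be technical.

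The large subunit is built in the nucleolus around precursor ribosomal RNA. Many proteins that are absent from the finished ribosome cut, fold and modify this RNA, and ATPases and GTPases then strip them off step by step. The particle is exported to the cytoplasm, where the last factors leave. H/ACA particles turn uridines of ribosomal RNA into pseudouridine. MYC is known to activate many genes of this pathway, through the E-box letters CACGTG among others, and proliferating leukaemia cells express them highly.

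Values are log2 signals of 1 probe set per gene, the one with the highest mean over all arrays. A limma fit across 32768 probe sets gave p-values with Benjamini-Hochberg adjustment. Genes with an adjusted p under 0.05 are the called ones, and "rose" and "fell" are used only of called genes. Errors of changes are standard errors (SE). In bulk RNA, fewer cells of a kind and less RNA per cell cannot be told apart.

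The arrays differed in ways that bear on small changes. The medians of all probe sets were 5.53 to 5.77 on the HHT arrays and 5.82 to 5.96 on the vehicle arrays. The 18 probe sets for hybridisation controls, which are added at equal amounts, averaged 11.70 ± 0.0598 on HHT arrays and 11.98 ± 0.0282 on vehicle arrays (SD, n = 3 each). A two-sided exact permutation test gave p = 0.1, the smallest that 3 against 3 arrays allow. Scaling to equal medians moved the median change of all genes, about 0 as deposited, to 0.24, and scaling to equal hybridisation controls moved it to 0.28. Differences under about this size therefore have no settled sign. Some larger ones are not settled either, because quantile normalization, another scaling, moves genes by unequal amounts. It took RSL24D1 from -0.31 to 0.042 and NPM1 from -0.55 to -0.17, but NOP16 from -1.68 to -1.72. The signal from the 3' end minus that from the 5' end, a sign of RNA quality, averaged 0.12 ± 0.0618 on HHT arrays and 0.18 ± 0.0365 on vehicle arrays for GAPDH (SD, n = 3 each, exact permutation p = 0.3, two-sided). The same measure of ACTB was 2.79 ± 0.109 on HHT arrays and 2.72 ± 0.0468 on vehicle arrays (SD, n = 3 each, exact permutation p = 0.5, two-sided), so the 3' end was much the brighter in both groups. Of the markers of the line, KIT (14.22 ± 0.0431 in HHT, 14.83 ± 0.133 in vehicle), MPO (12.63 ± 0.198 and 14.39 ± 0.0765), CD34 (8.03 ± 0.244 and 9.20 ± 0.0437) and RUNX1T1 (13.20 ± 0.0379 and 13.23 ± 0.0382) were present, and CD33 was not analysed here. Of markers of other cells, CD3E (5.01 ± 1.08 in HHT, 5.84 ± 0.396 in vehicle) and HBB (6.21 ± 0.336 and 6.46 ± 0.366) were dim and ALB lay under the filter level of 4.80. EPCAM, best known from epithelium, was bright, at 12.93 ± 0.0807 in HHT and 13.69 ± 0.0216 in vehicle (SD, n = 3 each). KIT, MPO, CD34 and EPCAM were called lower in HHT. No marker was at 0 in a group, and the part of these differences in the results was not tested.

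Stretches of the promoters of 5 of the genes are shown for where the E-box letters lie or are missing. They run from 170 bases before the start to base 30, counting the start as base 1, from RefSeq (GRCh38.p14), written 5′ to 3′ on the gene's strand with CACGTG in capitals. MDN1, MRTO4, NOC3L and PES1 are genes that fell and hold the letters at different places, and NVL is the member with the highest increase and holds none. These 5 were picked by their letters and changes and do not stand for the other genes.
MDN1 (chr6:89819765-89819964, minus strand): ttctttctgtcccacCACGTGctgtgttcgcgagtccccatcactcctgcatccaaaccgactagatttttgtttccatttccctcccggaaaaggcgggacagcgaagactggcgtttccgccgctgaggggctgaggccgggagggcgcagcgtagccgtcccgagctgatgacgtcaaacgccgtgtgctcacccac
MRTO4 (chr1:19251635-19251834, plus strand): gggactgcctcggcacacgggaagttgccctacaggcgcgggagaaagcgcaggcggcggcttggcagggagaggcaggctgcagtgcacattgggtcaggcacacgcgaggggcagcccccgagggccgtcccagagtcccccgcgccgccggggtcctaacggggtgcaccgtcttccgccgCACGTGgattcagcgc
NOC3L (chr10:94362910-94363109, minus strand): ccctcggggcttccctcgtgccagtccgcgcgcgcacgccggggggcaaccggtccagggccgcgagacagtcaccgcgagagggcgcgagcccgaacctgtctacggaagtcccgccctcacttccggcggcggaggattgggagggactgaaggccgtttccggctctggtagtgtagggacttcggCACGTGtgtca
PES1 (chr22:30591881-30592080, minus strand): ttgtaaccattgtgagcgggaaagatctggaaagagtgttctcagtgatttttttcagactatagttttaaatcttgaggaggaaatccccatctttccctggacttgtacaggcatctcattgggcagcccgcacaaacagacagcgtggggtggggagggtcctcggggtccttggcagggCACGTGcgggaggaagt
NVL (chr1:224330143-224330342, minus strand): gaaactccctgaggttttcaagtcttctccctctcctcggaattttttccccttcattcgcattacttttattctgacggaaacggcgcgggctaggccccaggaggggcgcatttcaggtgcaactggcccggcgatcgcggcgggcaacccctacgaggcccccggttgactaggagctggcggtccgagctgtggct

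RefSeq windows of 300 bases, from 250 before the start to 50 after it, were found by symbol for 39 of the 45 measured genes. CACGTG, which reads the same on both strands, lay in a window of 13 of these 39 genes (33.3%), against 1525 of 13455 protein-coding genes of the array with a window (11.3%). These genes of the array were not filtered on signal, while all 45 measured genes passed the filter. Among the 28 measured genes with a window that fell, 10 held it. Among the 7 that were not called 3 held it, and among the 4 that rose 0 held it. Of the genes with a window that fell by at least 1 on the log2 scale, MDN1 and MRTO4 held it. NOP16, NPM3, NCL, URB1, WDR12 and PA2G4 did not hold it. In MRTO4 it began at base 15, in NOC3L at base 20, in PES1 at base 14, in NLE1 at base 13 and in GNL2 at base 4, and GNL2 was not called. MDN1 held it at base -155 and again at base 28, where the printed stretch ends inside it. These counts describe letters in the windows and no binding.

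Of the 45 measured genes 32 fell (71.1%) and 4 rose (8.89%), where 24.2% of all 13572 genes fell, 29.6% rose and 53.8% did either. The other 9 were not called. These genes and the further lists below were chosen with earlier results of these data known. The shares set beside those of all genes are therefore no test of the list. The median change was -0.42 on the log2 scale, with a range of -1.68 (NOP16) to 1.10 (NVL). In the same fit the range over all genes was -4.40 to 4.43. A decrease of at least 1 on the log2 scale was called for 11 of the 45, against 5.94% of all genes, and an increase of at least 1 for NVL alone, against 9.56% of all genes. The 3 HHT arrays all lay below the 3 vehicle arrays for 31 of the 45 (29.0% of all genes) and above them for 4 (33.2% of all genes).

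The count of genes that fell depended on the scaling. It was 18 with equal medians, where 12.7% of all genes fell, 18 with equal hybridisation controls (12.8% of all genes) and 30 after quantile normalization (22.9% of all genes). The counts that rose were 4, 5 and 3 under the same settings, against 37.3%, 41.6% and 29.9% of all genes. Set against the median of all genes, the median of the 45 was -0.51 after quantile normalization. The other 2 scalings shift all genes of an array alike and cannot change that distance, which was -0.42. WDR12, NIP7, NOP16, NOC3L, MRTO4, URB1, URB2, RRS1, DDX21, GTPBP4, MDN1, PA2G4, NCL, NPM1, NPM3, NOLC1 and GAR1 were called lower, and RPF1, DDX27 and NVL higher, in every one of the 17 alternative fits run for single genes.

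**Figure D1:**
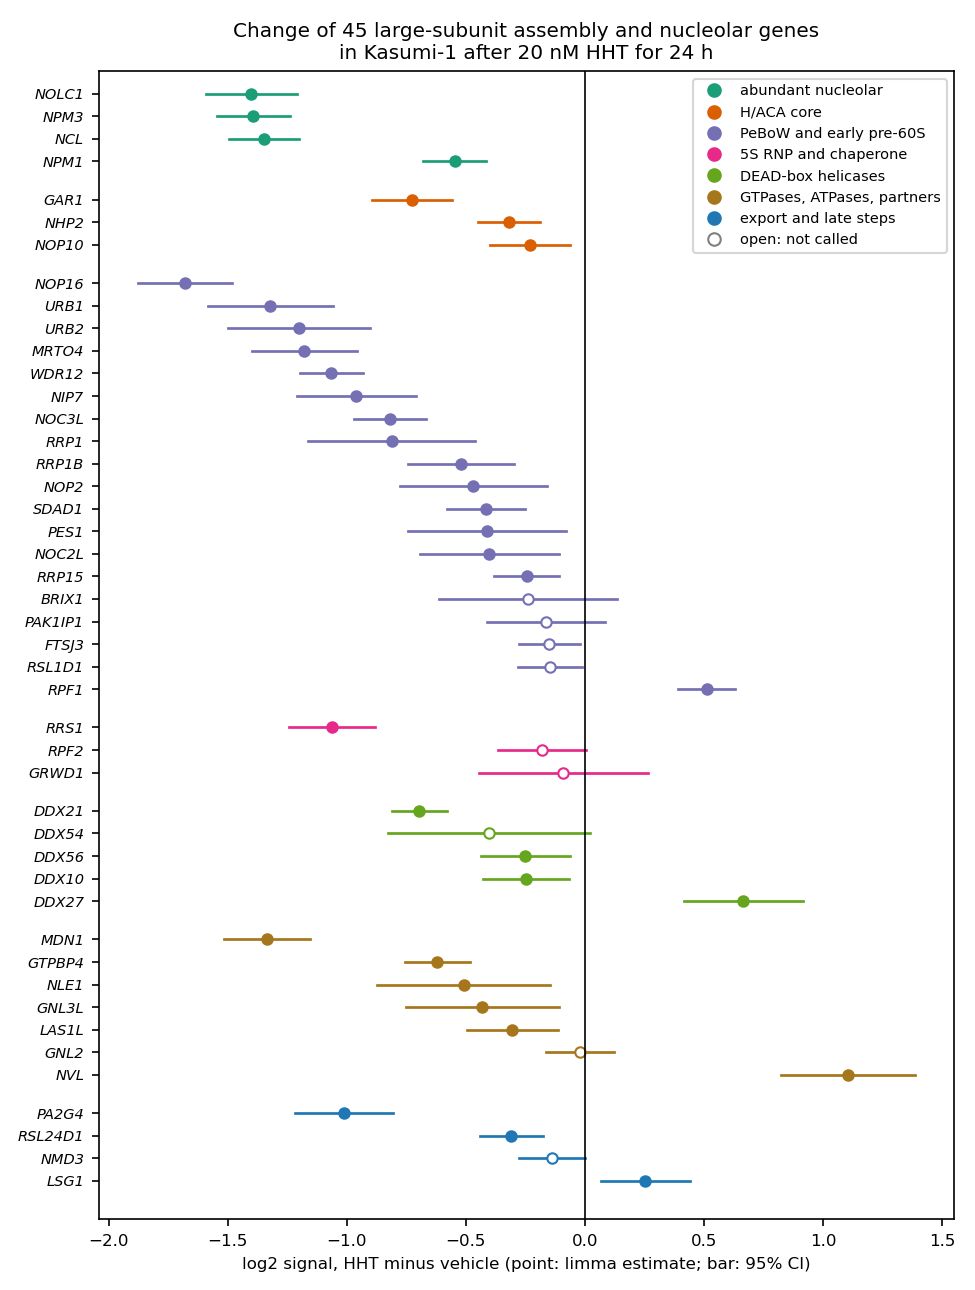
Fitted log2 signal change (x axis, HHT minus vehicle) of the 45 measured genes (y axis), by role, with 95% confidence intervals as bars, from 3 HHT and 3 vehicle arrays; filled points were called. Most points lie left of 0, down to -1.68 for NOP16, and 4 filled points, RPF1, DDX27, NVL and LSG1, lie right of it.

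All 4 abundant nucleolar proteins fell, where 24.2% of all genes fell. NOLC1, a chaperone of small nucleolar RNA-protein particles, had log2 signals of 10.78, 11.09 and 11.05 on the HHT arrays, against 12.40, 12.30 and 12.43 on the vehicle arrays. All HHT arrays lay more than 1 log2 unit below all vehicle arrays. NOLC1 fell by 1.40 (SE 0.0859, adjusted p = 5.19e-07), a 2.64-fold lower signal.

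NPM3, a nucleoplasmin family member that binds NPM1, had 10.13, 10.08 and 10.10 on the HHT arrays, against 11.43, 11.56 and 11.50 on the vehicle arrays. It fell by 1.39 (SE 0.0687, adjusted p = 1.45e-07). NCL encodes nucleolin, an RNA-binding protein that acts in ribosomal RNA synthesis and processing. Its signals were 12.74, 12.93 and 12.72 on the HHT arrays, against 14.11, 14.11 and 14.21 on the vehicle arrays, a fall by 1.35 (SE 0.0661, adjusted p = 1.39e-07). In both genes the arrays of a group lay close together and the groups stood far apart.

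NPM1 encodes nucleophosmin, a nucleolar chaperone that is often mutated in acute myeloid leukaemia. Its signals were 14.36, 14.31 and 14.42 on the HHT arrays, against 15.00, 14.79 and 14.93 on the vehicle arrays. The groups did not overlap, and the fall by 0.55 (SE 0.0600, adjusted p = 2.77e-05) was the smallest of the 4. Quantile normalization gave -0.17, equal hybridisation controls gave -0.26 and equal medians gave -0.31, all called. Processed pseudogenes of NPM1 are known, and what they add to its probe sets was not tested. Its other probe sets gave -0.67 and -0.64, both called.

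The H/ACA core was represented by 3 of its 4 proteins, and all 3 fell as deposited, where 24.2% of all genes fell. The falls of NHP2 and NOP10 were not called under any other scaling. GAR1 had 10.77, 10.71 and 10.94 on the HHT arrays, against 11.55, 11.48 and 11.57 on the vehicle arrays, and fell by 0.73 (SE 0.0755, adjusted p = 1.85e-05). NHP2 had 13.25, 13.22 and 13.25 on the HHT arrays, against 13.68, 13.51 and 13.50 on the vehicle arrays, and fell by 0.32 (SE 0.0591, adjusted p = 0.00113). Equal medians brought it to -0.080 (adjusted p = 0.543). NOP10 had 12.73, 12.54 and 12.75 on the HHT arrays, against 13.02, 12.90 and 12.80 on the vehicle arrays, so that the nearest arrays of the groups differed by less than the spread within either. It fell by 0.23 (SE 0.0757, adjusted p = 0.0277), but equal medians gave 0.0070 and equal hybridisation controls 0.052, and leaving out vehicle replicate 1, vehicle replicate 2 or HHT replicate 2 ended the call (-0.24 to -0.17, adjusted p up to 0.127), as did a fit without a variance trend (adjusted p = 0.135). GAR1, a small protein of the particle, was thus the only measured core gene whose fall held under all 4 scalings.

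**Figure D2:**
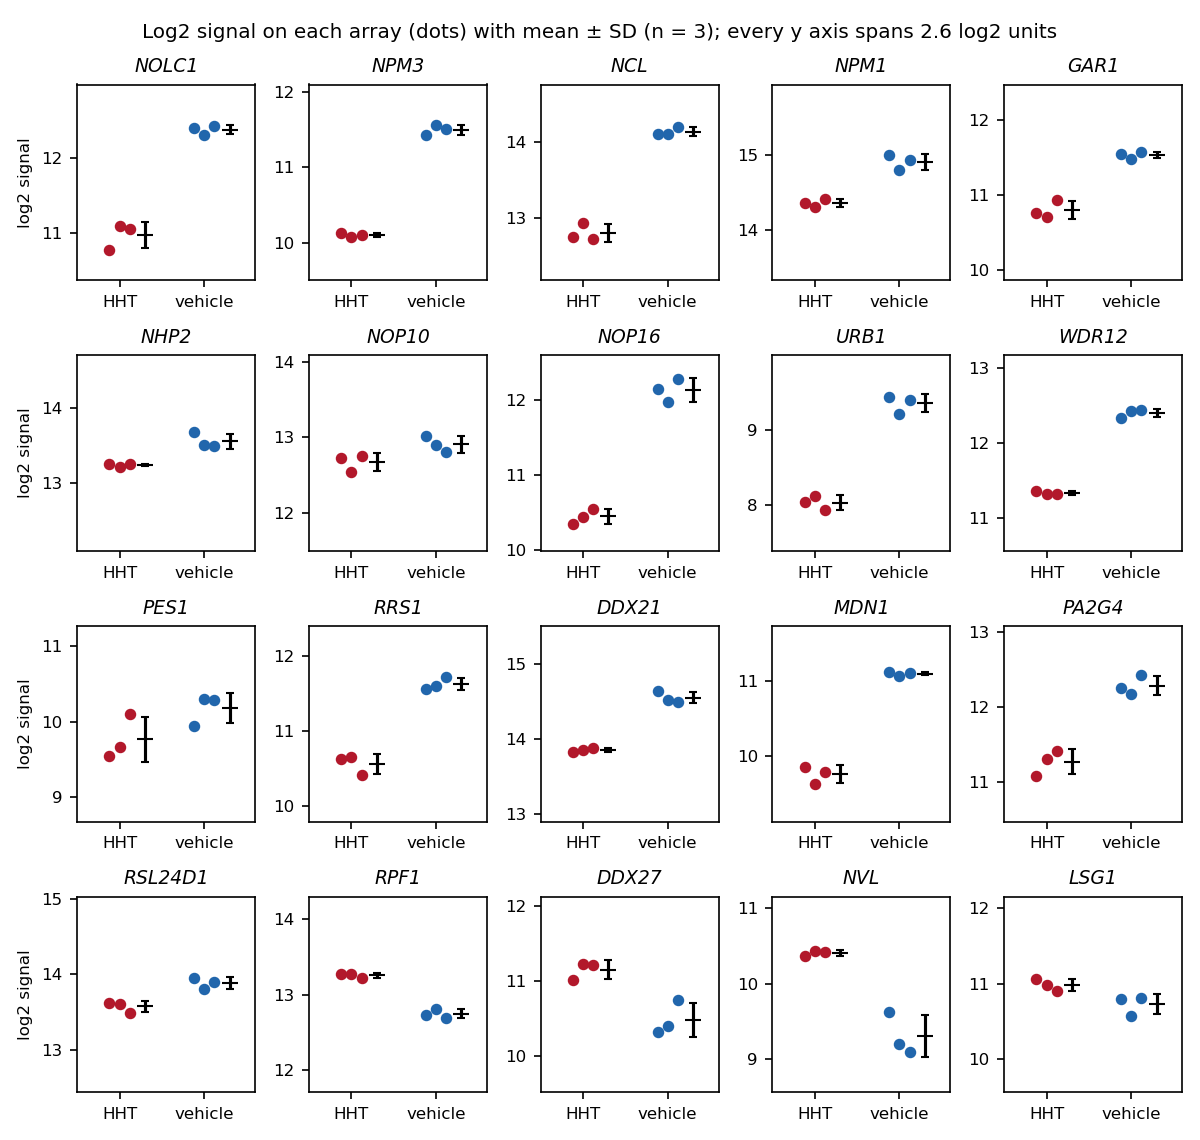
Log2 signal on each of the 3 HHT (left, red) and 3 vehicle (right, blue) arrays for 20 genes, with mean ± SD beside the points; each y axis spans the same number of log2 units. The groups are apart in every panel except PES1, where the highest HHT array (10.10) lies above the lowest vehicle array (9.95), and the order turns in the last 4 panels, RPF1, DDX27, NVL and LSG1.

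The early factors of large-subunit assembly were the largest group. Of these 14 of 19 fell and 1 rose, where 24.2% of all genes fell and 29.6% rose. NOP16, a nucleolar protein of large-subunit precursors, had 10.36, 10.45 and 10.55 on the HHT arrays, against 12.15, 11.97 and 12.28 on the vehicle arrays. It fell by 1.68 (SE 0.0890, adjusted p = 2.14e-07), a 3.21-fold lower signal and the largest decrease among the 45 genes. URB1, a very large protein of early precursor particles, had 8.04, 8.13 and 7.94 on the HHT arrays, against 9.44, 9.22 and 9.41 on the vehicle arrays. It fell by 1.32 (SE 0.118, adjusted p = 6.13e-06), and its partner URB2 fell by 1.20 (SE 0.134, adjusted p = 3.12e-05).

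The PeBoW complex, made of PES1, BOP1 and WDR12, is needed to process the spacer between the large-subunit RNAs. WDR12 had 11.37, 11.32 and 11.32 on the HHT arrays, against 12.33, 12.42 and 12.45 on the vehicle arrays, and fell by 1.06 (SE 0.0592, adjusted p = 2.91e-07). The groups stood far apart. PES1 had 9.54, 9.66 and 10.10 on the HHT arrays, against 9.95, 10.30 and 10.29 on the vehicle arrays. These groups overlapped, and PES1 fell by 0.41 (SE 0.149, adjusted p = 0.0437). That call ended when vehicle replicate 2, vehicle replicate 3, HHT replicate 1 or HHT replicate 2 was left out (-0.36 to -0.30, adjusted p up to 0.143), with equal medians (-0.17, adjusted p = 0.513), with equal hybridisation controls (-0.13, adjusted p = 0.495), with no filter (adjusted p = 0.0540) and without a variance trend (adjusted p = 0.139). The 95% intervals of the 2 changes, -1.20 to -0.93 for WDR12 and -0.74 to -0.080 for PES1, did not overlap, and the difference between the genes was not tested.

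Of the other early factors, MRTO4, a relative of the ribosomal stalk protein that holds its place, fell by 1.18 (SE 0.0996), NIP7, which acts in processing of the precursor RNA, by 0.96 (SE 0.113) and NOC3L by 0.82 (SE 0.0682). NOC3L and NOC2L belong to a family known from yeast to move precursors out of the nucleolus. RRP1, whose yeast relative is needed for processing of the precursor RNA, fell by 0.81 (SE 0.157), and its relative RRP1B fell by 0.52 (SE 0.100). With the mean of its probe sets RRP1 was at -0.45 and not called (adjusted p = 0.0571), and quantile normalization gave -0.28 for RRP1B, still called. In these 5 genes the HHT and vehicle arrays did not overlap. Smaller falls were called as deposited for NOP2, a methyltransferase of ribosomal RNA (-0.47), SDAD1 (-0.42), NOC2L (-0.40) and RRP15 (-0.25). None of these 4, nor RRP1B, was called with equal medians or equal hybridisation controls, and RRP15 stood at 0.038 with the second of these. The calls of NOP2 and NOC2L also ended when any 1 of vehicle replicates 1 and 2 and HHT replicates 2 and 3 was left out (NOP2 -0.44 to -0.38, adjusted p up to 0.0696; NOC2L -0.41 to -0.29, adjusted p up to 0.103), and without a variance trend (adjusted p = 0.0677 for NOP2 and 0.0567 for NOC2L).

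Of the early factors, 4 were not called. BRIX1, which like RPF2 has a Brix domain, differed by -0.24 (95% interval -0.61 to 0.14), PAK1IP1 by -0.16 (-0.41 to 0.086), the RNA methyltransferase FTSJ3 by -0.15 (-0.28 to -0.023) and RSL1D1 by -0.15 (-0.28 to -0.012). All 4 were above 0 with equal medians and equal hybridisation controls, and RSL1D1 was called lower by quantile normalization (-0.16, adjusted p = 0.0393). Without vehicle replicate 1, BRIX1 (-0.43, adjusted p = 0.0375), PAK1IP1 (-0.28, adjusted p = 0.0431) and FTSJ3 (-0.17, adjusted p = 0.0445) were called lower. FTSJ3 was also called lower with 60% of probe sets left out (adjusted p = 0.0380) and with a robust variance trend (adjusted p = 0.04996). The fit on means of probe sets called it lower too (adjusted p = 0.0354). Against the direction of the group, RPF1, a Brix domain protein, had 13.27, 13.28 and 13.22 on the HHT arrays and 12.73, 12.81 and 12.70 on the vehicle arrays. It rose by 0.51 (SE 0.0540, adjusted p = 2.13e-05), with values of 0.73 to 0.79 under the other scalings.

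RPF2 and RRS1 act together, known best from yeast, to bring the particle of 5S RNA into the precursor, and GRWD1 is a chaperone of the ribosomal protein RPL3. The partners differed in their values. RRS1 had 10.63, 10.65 and 10.42 on the HHT arrays, against 11.56, 11.60 and 11.72 on the vehicle arrays, and fell by 1.06 (SE 0.0821, adjusted p = 2.32e-06). RPF2 differed by -0.18 (95% interval -0.36 to 0.0059, adjusted p = 0.105), with 11.88, 12.01 and 12.05 on the HHT arrays, against 12.34, 12.04 and 12.10 on the vehicle arrays. Its groups overlapped, as did those of GRWD1, which differed by -0.091 (95% interval -0.45 to 0.26, adjusted p = 0.672). RPF2 and GRWD1 were above 0 with equal medians and equal hybridisation controls. No test of the difference between RRS1 and RPF2 was run.

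Of 5 DEAD-box RNA helicases, 3 fell and 1 rose, where 24.2% of all genes fell and 29.6% rose. DDX21, which links transcription of ribosomal RNA to its processing, had 13.83, 13.85 and 13.88 on the HHT arrays, against 14.63, 14.52 and 14.49 on the vehicle arrays. It fell by 0.70 (SE 0.0521, adjusted p = 1.87e-06), or by 0.32 after quantile normalization. DDX27, a helicase that binds the PeBoW complex, moved the other way, with 11.01, 11.23 and 11.22 on the HHT arrays and 10.32, 10.40 and 10.74 on the vehicle arrays. It rose by 0.66 (SE 0.112, adjusted p = 0.000595), and its other probe set gave 0.59, also called.

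DDX10 and DDX56 fell by 0.25 each as deposited (adjusted p = 0.0272 and 0.0319), but equal medians gave -0.010 for DDX10 and -0.012 for DDX56, and equal hybridisation controls gave 0.035 and 0.033. The call of DDX10 also ended with any 1 of vehicle replicates 1 and 2 and HHT replicates 2 and 3 left out (-0.24 to -0.20, adjusted p up to 0.0984), and that of DDX56 with any 1 of vehicle replicates 1 and 3 and HHT replicates 1 and 2 left out (-0.26 to -0.20, adjusted p up to 0.111). Without a variance trend neither was called (adjusted p = 0.122 for DDX10 and 0.0767 for DDX56). DDX54 differed by -0.40 (95% interval -0.83 to 0.022, adjusted p = 0.112) and was not called, but it was without HHT replicate 3 (-0.60, adjusted p = 0.0183) and with the mean of its probe sets (-0.48, adjusted p = 0.0183).

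Among the GTPases, ATPases and their partners, 5 of 7 fell and 1 rose, where 24.2% of all genes fell and 29.6% rose. The 2 AAA-type ATPases of the group went opposite ways. MDN1 encodes midasin, a giant ATPase that pulls assembly factors off the precursor. It had 9.86, 9.63 and 9.79 on the HHT arrays, against 11.11, 11.07 and 11.11 on the vehicle arrays. MDN1 fell by 1.34 (SE 0.0809, adjusted p = 4.80e-07), a 2.52-fold lower signal, and its other tested probe set gave -1.53.

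NVL, an ATPase related to VCP that acts on nucleolar precursors, had 10.36, 10.44 and 10.42 on the HHT arrays, against 9.62, 9.19 and 9.09 on the vehicle arrays. NVL rose by 1.10 (SE 0.127, adjusted p = 3.92e-05), a 2.15-fold higher signal and the highest increase among the 45 genes. All 3 HHT arrays lay within 0.1 of each other and above every vehicle array.

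GTPBP4, a GTPase of nucleolar precursors, fell by 0.62 (SE 0.0614, adjusted p = 1.32e-05), and its other 2 probe sets gave -0.61 and -0.58, both called. NLE1, a partner of midasin, fell by 0.51 (SE 0.163), GNL3L, a GTPase related to nucleostemin, by 0.43 (SE 0.145) and LAS1L, the nuclease subunit that cuts the spacer, by 0.30 (SE 0.0857). None of these 3 was called with equal medians, with equal hybridisation controls or without a variance trend. Their calls were also lost with vehicle replicate 1, HHT replicate 2 or HHT replicate 3 left out for NLE1 (-0.50 to -0.39, adjusted p up to 0.0952), with any 1 of vehicle replicates 1 and 3 and HHT replicates 2 and 3 left out for GNL3L (-0.45 to -0.31, adjusted p up to 0.117) and without HHT replicate 2 for LAS1L (-0.29, adjusted p = 0.0508). The other probe sets of GNL3L gave -0.79, -1.18 and -0.84, all called lower, and the mean of its probe sets gave -0.81, also called. The other probe set of NLE1 gave -0.63 and that of LAS1L gave -0.82, both called lower. GNL2, a further nuclear GTPase, differed by -0.021 (95% interval -0.17 to 0.12, adjusted p = 0.819). It was at 0.26 and called with equal hybridisation controls (adjusted p = 0.0160).

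Of 4 factors of export and late maturation 2 fell and 1 rose, where 24.2% of all genes fell and 29.6% rose. PA2G4, which binds large subunits and is also known as a regulator of growth, had 11.09, 11.30 and 11.41 on the HHT arrays, against 12.25, 12.17 and 12.42 on the vehicle arrays. It fell by 1.01 (SE 0.0932, adjusted p = 7.82e-06), and its other probe set gave -1.34. RSL24D1 holds the place of a ribosomal protein until the particle reaches the cytoplasm. It had 13.63, 13.61 and 13.49 on the HHT arrays, against 13.95, 13.80 and 13.90 on the vehicle arrays, a fall by 0.31 (SE 0.0595, adjusted p = 0.00145). Quantile normalization brought RSL24D1 to 0.042, and equal medians to -0.070 (adjusted p = 0.585).

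NMD3 is the adaptor that carries the subunit through the nuclear pore, and LSG1 is the cytoplasmic GTPase that sets NMD3 free. NMD3 differed by -0.14 (95% interval -0.28 to 0.00071, adjusted p = 0.0962), and stood at 0.087 to 0.15 under the other scalings. It was called lower without vehicle replicate 3 (-0.18, adjusted p = 0.0460) and with weights for arrays. LSG1 had 11.06, 10.97 and 10.90 on the HHT arrays, against 10.80, 10.57 and 10.81 on the vehicle arrays, and rose by 0.25 (SE 0.0844, adjusted p = 0.0308). Its other 2 probe sets gave 0.43 and 0.50, both called. The call at 0.25 ended with vehicle replicate 2, HHT replicate 1 or HHT replicate 2 left out (0.17 to 0.25, adjusted p up to 0.111), under quantile normalization (0.16, adjusted p = 0.162) and without a variance trend (adjusted p = 0.106).

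Most genes were read by more than 1 probe set, which gives a check within the gene on the same arrays. The 45 genes had 91 probe sets, of which 85 were tested, and 59 of these were called lower and 8 higher (23.3% and 23.0% of all probe sets tested). Of the 40 tested probe sets other than the brightest of its gene, 29 had the same call as the brightest and 0 had the opposite call. Another 5 were not called where the brightest was (of NCL, NOP16, RRP1, RRP1B and URB1), and 4 were not called in genes whose brightest was not called either. The last 2 had a call that the brightest did not, a DDX54 probe set at -0.68 (adjusted p = 0.0129) and an RSL1D1 probe set at 0.59 (adjusted p = 5.58e-05).

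RSL1D1, a nucleolar protein with a domain of ribosomal protein L1, had probe sets on both sides of 0, as did NOP16 and NMD3, and was the only one of the 3 with a called increase. Its brightest probe set differed by -0.15 (adjusted p = 0.0716), its next averaged 10.59 in HHT and 10.00 in vehicle, and its dimmest differed by 0.31 (adjusted p = 0.139). The mean of all 3 was 0.25 higher in HHT (adjusted p = 0.0112). Which transcripts each probe set reads was not tested. In NOC2L, DDX56, RRP15 and LAS1L a dimmer probe set gave the larger fall, at -1.70 against -0.40, -1.13 against -0.25, -0.74 against -0.25 and -0.82 against -0.30. The errors of the first 2 were wide. That of NOC2L averaged 5.96 over all arrays (SE of the change 0.566, adjusted p = 0.0304), and that of DDX56 averaged 6.83 (SE 0.322, adjusted p = 0.0144).

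**Figure D3:**
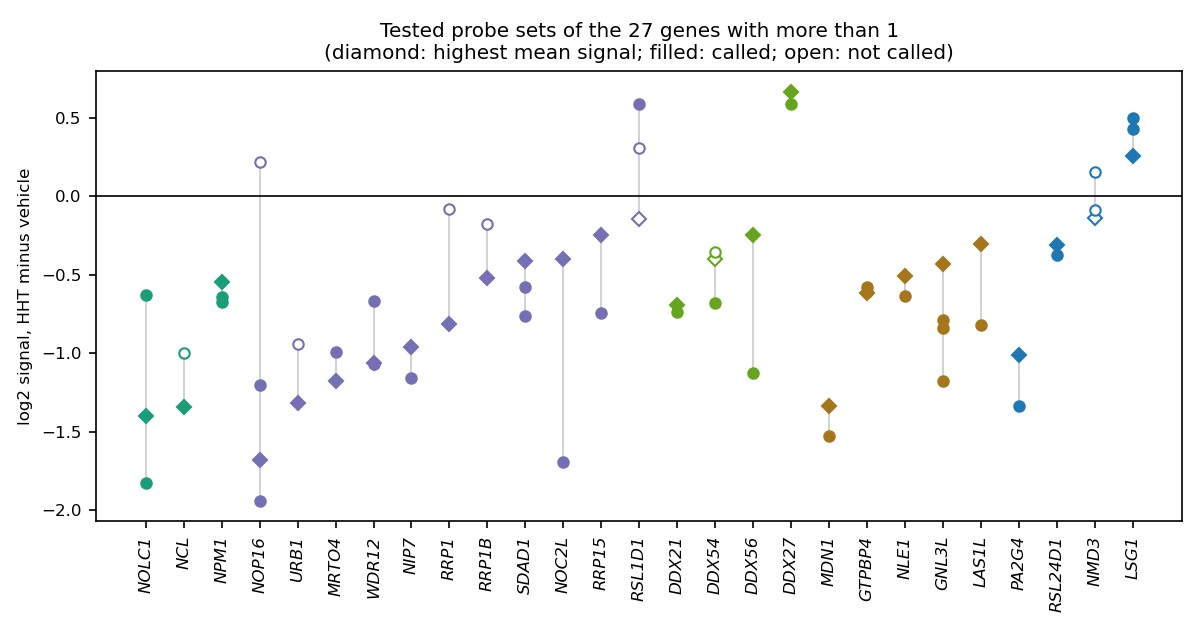
Log2 signal change (y axis, HHT minus vehicle) of each tested probe set of the 27 genes with more than 1 (x axis); diamonds mark the probe set of highest mean signal, and filled symbols were called. RSL1D1, NOP16 and NMD3 have symbols on both sides of 0, with RSL1D1 from -0.15 to 0.59, while both DDX27 symbols and all 3 LSG1 symbols lie above 0.

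Beside the 45, a list of 34 further large-subunit factors had 31 measured. Of these 14 fell (45.2%) and 7 rose (22.6%), where 24.2% of all genes fell and 29.6% rose. The share that rose was thus no larger than that of all genes, and the difference between the lists was not tested. Their median change was -0.15 as deposited and -0.081 after quantile normalization, but 0.086 under equal medians and 0.13 under equal hybridisation controls. CCDC86, a nucleolar protein whose yeast relative acts on the large subunit, had 9.08, 9.10 and 9.12 on the HHT arrays, against 10.78, 10.74 and 10.78 on the vehicle arrays. It fell by 1.66 (SE 0.0765, adjusted p = 9.39e-08), and MYBBP1A, a nucleolar protein that binds MYB, fell by 1.29 (SE 0.182, adjusted p = 0.000170). The 7 that rose were ZNF622 (0.66), NOL12 (0.64), REXO4 (0.36), AFG2B (0.36), TEX10 (0.33), AFG2A (0.31) and NIFK (0.20). TEX10 belongs to the complex that works with LAS1L. With equal hybridisation controls 14 of the 31 rose, where 41.6% of all genes did, and with the mean of all probe sets of a gene 4 did.

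Of the genes that rose, ZNF622, AFG2A and AFG2B act late, in the cytoplasm. ZNF622, whose yeast relative recycles a factor of cytoplasmic particles, had 11.83, 11.82 and 11.82 on the HHT arrays, against 11.11, 11.20 and 11.17 on the vehicle arrays. AFG2A and AFG2B belong to the ATPase complex that takes RSL24D1 off the particle. The call of AFG2A was lost after quantile normalization (0.20, adjusted p = 0.112), without vehicle replicate 3 (0.27, adjusted p = 0.0505) and without HHT replicate 3 (0.27, adjusted p = 0.0688), and AFG2A, AFG2B, TEX10, NOL12 and NIFK were not called with the mean of all probe sets. NIFK, which binds the proliferation antigen MKI67, was not called with any 1 of vehicle replicates 1 and 2 and HHT replicates 2 and 3 left out (0.16 to 0.18, adjusted p up to 0.148). EIF6, which keeps the subunits apart, and EFL1, the GTPase that releases it, were picked after their values were seen. EIF6 averaged 11.46 ± 0.0730 in HHT and 11.46 ± 0.0659 in vehicle (SD, n = 3 each), with a 95% interval of the difference of -0.15 to 0.15. EFL1 differed by 0.13 (95% interval -0.044 to 0.30, adjusted p = 0.204). With equal hybridisation controls both were called higher, at 0.28 and 0.41.

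**Figure D4:**
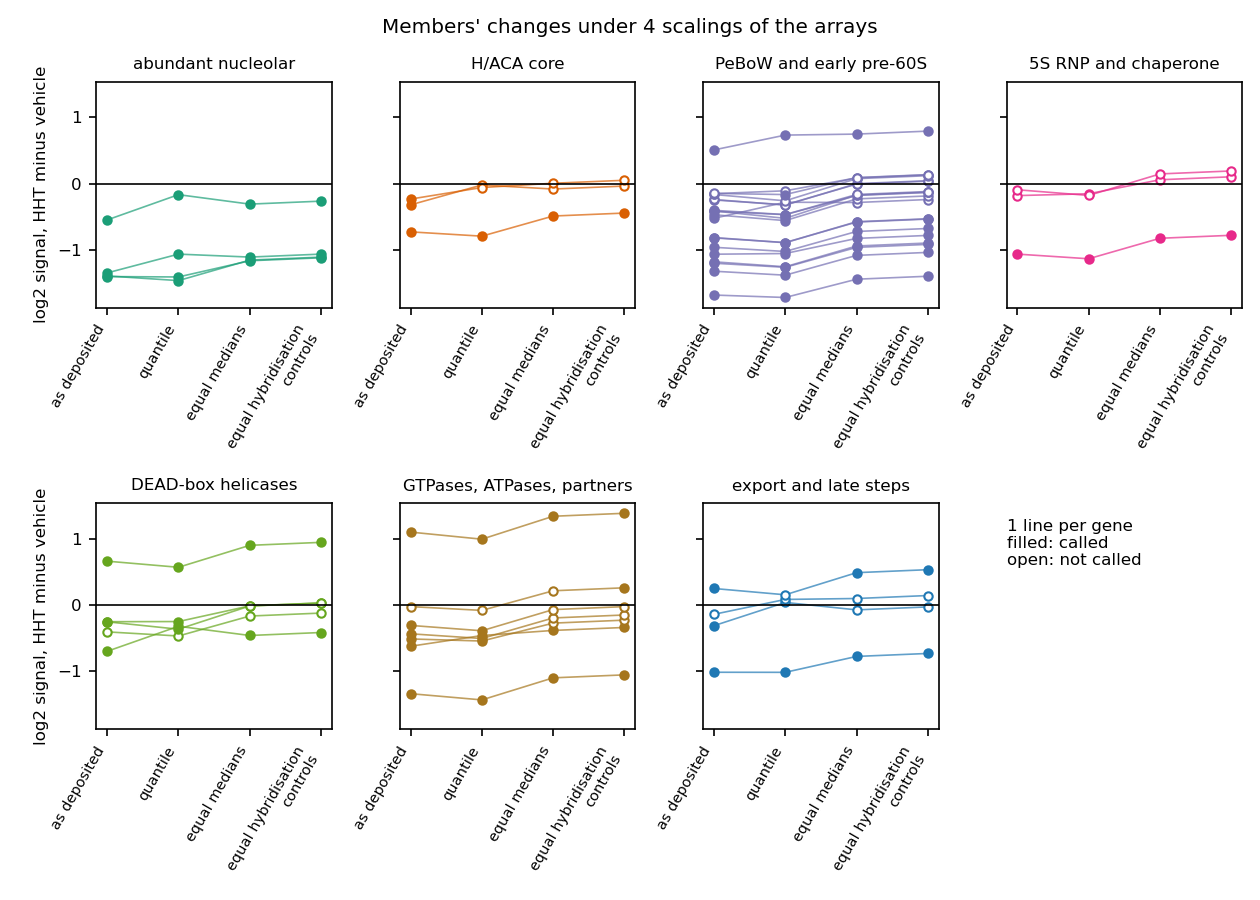
Log2 signal change (y axis, HHT minus vehicle) of each of the 45 genes (1 line each) by role, under the deposited scaling, quantile normalization, equal medians and equal hybridisation controls (x axis); filled points were called. Lines of the abundant nucleolar genes stay below 0 throughout, while NHP2 and NOP10 among the H/ACA genes come to within 0.1 of 0 in the last 3 positions.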

How the data were processed

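Each array has 1 log2 signal for every probe set, as the authors deposited it. The tool listed per the submitters' processing notes is MAS5, with no version. The mean antilog signal after trimming 2% at each end was 500.06 to 500.07 on every array. No detection calls were used. Of 54675 probe sets, 62 controls and the 40% of the others with the lowest mean (under 4.80) were left out, and 32768 were tested in limma 3.58.1 (R 4.3.3) with a variance trend and Benjamini-Hochberg adjustment. A gene is its brightest single-gene probe set by the platform annotation, with symbols updated through RefSeq. Named genes are all 45 measured members. Values on every array are given for those that rose, the 2 largest called changes of each role, and PES1, WDR12, NPM1, NCL and the H/ACA core. From other lists the 2 largest called changes of each and those that rose are named. Values on every array of RPF2, CCDC86, ZNF622, NOP58 and FBL were added after they were seen. Members and lists were chosen with earlier results of these data known. The filter and each gene's probe set stayed fixed in all alternatives except the other filters and the mean of probe sets. Alternatives were 64 added before log2, equal medians, quantile normalization, equal hybridisation controls, no filter or 60% left out, other variance models, a block for the replicate number, weights for arrays, a stricter threshold (0.01), a minimum change of 1, the mean of probe sets, and leaving out each array. The fit was run on simulated data in which few probe sets changed and the array levels of the groups were alike. These arrays differ from that on both points, so the run does not bear on the scaling.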

Additional observations from a re-analysis of the deposited data

How the results depend on the processing

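Among the 45 genes, 20 of the 36 called kept their call in every alternative fit, 26 in every fit that left out an array and 21 under all 3 other scalings. The 32 that fell became 18 under equal medians, 18 under equal hybridisation controls and 11 when a change of at least 1 was also required. The 4 that rose became 1 with that requirement. Leaving out each array in turn gave 23 to 30 lower, 3 to 4 higher and medians of -0.44 to -0.40. The mean of all probe sets of a gene gave a median of -0.56, equal medians gave -0.18 and equal hybridisation controls gave -0.13. Of the further large-subunit factors, 14 lower became 4 and 7 higher became 0 with a change of at least 1 required in limma. The highest increase among them was 0.66, so an unadjusted p under 0.05 gives 0 as well. The count of 7 became 14 with equal hybridisation controls and 4 with the mean of probe sets. Those 4 are not all among the 7, of which AFG2A, AFG2B, TEX10, NOL12 and NIFK lost their call there. Without 1 array, 11 to 14 were lower and 5 to 7 higher.

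Signs turned for changes near 0, and for RSL24D1, which was at -0.31 as deposited. With equal medians the values were 0.089 for FTSJ3, 0.00085 for BRIX1, 0.092 for RSL1D1, 0.076 for PAK1IP1, 0.060 for RPF2, 0.15 for GRWD1, 0.22 for GNL2, 0.10 for NMD3, 0.0070 for NOP10 and 0.24 for EIF6. With equal hybridisation controls they were 0.038 for RRP15, 0.13 for FTSJ3, 0.046 for BRIX1, 0.14 for RSL1D1, 0.12 for PAK1IP1, 0.10 for RPF2, 0.19 for GRWD1, 0.035 for DDX10, 0.033 for DDX56, 0.26 for GNL2, 0.15 for NMD3, 0.052 for NOP10 and 0.28 for EIF6. After quantile normalization they were 0.087 for NMD3 and 0.042 for RSL24D1, and with the mean of probe sets 0.25 for RSL1D1. Without 1 array, GRWD1 ranged over -0.23 to 0.062, GNL2 over -0.060 to 0.0016 and EIF6 over -0.041 to 0.031. The 2 shifts of scale by themselves move every gene by 0.24 or 0.28; the cause of the other turns was not tested.

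The replicate block changed no call among the 45 (32 lower, 4 higher). The deviations of arrays of the same number correlated at 0.065, -0.014 and 0.049. In both groups the median of all probe sets fell with the replicate number. It was 5.77, 5.62 and 5.53 on the HHT arrays, and 5.96, 5.86 and 5.82 on the vehicle arrays. Small correlations over many noisy probe sets cannot settle whether arrays of the same number belong together, and the labels do not say. Only 3 arrays a group limit the precision.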

Other observations

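Of the box C/D core, whose particles methylate ribosomal RNA, 3 of 4 proteins were measured and all 3 fell as deposited, with a median of -0.49, where 24.2% of all genes fell. With equal medians 1 of the 3 was called lower. NOP58 had log2 signals of 12.81, 12.71 and 12.60 on the HHT arrays, against 13.51, 13.39 and 13.48 on the vehicle arrays, and fell by 0.75 (SE 0.0646, limma adjusted p = 4.74e-06). FBL, the methyltransferase fibrillarin, had 13.29, 13.31 and 13.36 on the HHT arrays, against 13.84, 13.79 and 13.81 on the vehicle arrays. It fell by 0.49 (SE 0.0483, limma adjusted p = 1.21e-05), and equal medians ended its call (-0.25, adjusted p = 0.0583). SNU13, the smallest change of the 3, fell by 0.38 (SE 0.0681, limma adjusted p = 0.000859), and lost its call under equal medians (-0.14, adjusted p = 0.357) and equal hybridisation controls (-0.099, adjusted p = 0.292). Both assembly factors of H/ACA particles fell too, NAF1 by 0.56 (SE 0.159, limma adjusted p = 0.0136) and SHQ1 by 0.54 (SE 0.0772, limma adjusted p = 0.000200). The call of NAF1 ended under equal medians (-0.33, adjusted p = 0.146) and under equal hybridisation controls (-0.28, adjusted p = 0.200).

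The related letters CACGCG, on either strand, lay in a window of 14 of the 39 genes with one (35.9%). The share among protein-coding genes of the array, again not filtered on signal, was 19.5%. NPM1 held them at 4 places, of which those at bases -249 and -247 overlap, and of the 4 genes that rose LSG1 alone held them.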
